A study of Mus musculus with 2 samples.

Results

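Vascular smooth muscle cells (VSMC) were described in single-cell RNA sequencing of the stromal vascular fraction, the cells that remain once adipocytes are removed by digestion and centrifugation, of gonadal white adipose tissue (gWAT). VSMC were the barcodes with at least 2 Myh11 UMIs and at least 10 UMIs over Acta2 and Tagln, and with none of Pdgfra, Ptprc, Cdh5 and Msln, the markers of fibroblasts, leukocytes, endothelium and mesothelium. A UMI is a molecular tag that counts 1 captured transcript. The quality filter asked for 500 or more detected genes and no more than 10% of UMIs from mitochondrial genes, and 91 of the 4839 cells that passed it were VSMC. They were compared with 93 cells called pericytes, defined by at least 3 Rgs5 UMIs, at most 1 Myh11 UMI and the same 4 absent markers. That rule set no limit on Acta2 and Tagln and asked for no other pericyte gene, so the group is not pure.

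There was 1 library of each genotype, both from male C57BL/6 mice aged 13 weeks. The control library came from littermates labelled wildtype, which the study describes as Pgam1 flox/flox without Cre. The other came from Adipo-Pgam1 KO mice, in which Adipoq-Cre, driven by the adiponectin promoter that is active in adipocytes, deletes floxed Pgam1, a glycolytic enzyme. The number of mice behind each library was not given in the sources used here. With 1 library per genotype, genotype and library cannot be told apart, and cells are not replicates, so no test was possible. Levels are CPM, a gene's UMIs summed over a cell group and scaled to the usual fixed total of UMIs, and all intervals are 95% intervals that cover counting error only.

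VSMC form the contractile wall of arteries and veins. Calcium activates myosin light chain kinase, myosin pulls on smooth muscle actin, and myosin phosphatase ends the contraction. Many contractile genes are switched on by serum response factor and its partner myocardin through a DNA element named the CArG box. Pericytes sit on capillaries, are embedded in the basement membrane and carry ATP-sensitive potassium channels.

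The control library held 83 VSMC among 3881 cells, or 2.14% (exact binomial interval 1.71 to 2.64), and the KO library 8 among 958, or 0.835% (0.361 to 1.64). The intervals did not overlap, nor did those of pericytes, at 2.24% (1.80 to 2.76) and 0.626% (0.230 to 1.36). The lower KO share was thus not particular to VSMC. A further 73 control and 34 KO barcodes met the marker rule but failed the quality filter, 72 and 33 of them for more than 10% mitochondrial UMIs. Over all barcodes, filtered or not, those meeting the marker rule were 1.83% of control and 1.54% of KO barcodes. The control VSMC held 757260 UMIs with a median of 9159 per cell. The KO VSMC held 106037 with a median of 16546.5, and 5 of the 8 cells carried 96.1% of them, so every KO value rests mainly on 5 cells. There were 87 control pericytes with 458576 UMIs and 6 KO pericytes with 18256. Of the latter, 10223 UMIs came from 1 cell, which also held 28 of the group's 39 Acta2 and 18 of its 27 Tagln UMIs. It had 1 Myh11 UMI and 115 Rgs5 UMIs, so KO pericyte values rest mainly on a cell close to the VSMC rule. Of the 87 control pericytes 79 held a Pdgfrb UMI. The 91 Acta2 UMIs of this group came from 17 cells, some of which resembled VSMC. Among them, a cell with 4620 UMIs held 12 Acta2 and 18 Tagln UMIs, and another with 1757 UMIs held 16 and 7. Smooth muscle values of control pericytes thus rest partly on such cells. A different control pericyte with 4690 UMIs held 4 Rgs5 UMIs and none of Pdgfrb, Notch3, Abcc9 and Kcnj8. The libraries shared 9 barcode sequences, none of them between VSMC. Scrublet placed 3 control VSMC and no KO VSMC among the highest doublet scores, and these cells were kept.

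Several smooth muscle markers that had not chosen the cells were found in most control VSMC. Myl9, the regulatory light chain of myosin, was found in 82 of 83 control VSMC, Tpm2 in 80 and Lmod1, which nucleates actin filaments, in 69. Others were less clear. Cnn1, calponin, was found in 5 of 22 control VSMC low in Rgs5 and 10 of 61 high in it, classes described below. Smtn, smoothelin, was lower than in pericytes, and Myl9 was also present in pericytes, as given below. Some cells held more UMIs of pericyte genes than of Acta2, such as a control cell with 9 Acta2 and 21 Abcc9 UMIs. Markers of other cell types were present at unequal levels. Summed fibroblast markers stood at 5921 CPM in control VSMC, endothelial markers at 6488 and erythroid markers at 14321, against 6187, 1499 and 604 CPM in KO VSMC, and their part in the results was not tested. Most of the endothelial sum in both libraries was the fatty acid binding gene Fabp4, taken up below. Markers of mesothelium reached 15.8 CPM in control VSMC, those of Schwann cells 17.2, those of skeletal and cardiac muscle 60.7, those of adipocytes 299.8 and those of immune cells 354 CPM. The rule genes themselves are given as a description. Acta2, smooth muscle actin on chromosome 19 (34241090 to 34255590, minus strand, GRCm38), stood at 7296 CPM in control VSMC, 198 in control pericytes, 10723 in KO VSMC and 2136 in KO pericytes. Tagln, transgelin on chromosome 9 (45929619 to 45936058, minus strand), stood at 5838, 299, 7771 and 1479 CPM in the same order. Myh11, the smooth muscle myosin heavy chain on chromosome 16 (14194535 to 14291372, minus strand), stood at 2368, 78.5, 3763 and 164 CPM. Immune cells of the control library, which should lack these genes, gave 52.6 CPM of Acta2, 46.0 of Tagln and 21.3 of Myh11.

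Few control cells lay near the rule's limits. Inside it, 3 cells had exactly 2 Myh11 UMIs and 7 had 10 to 19 Acta2 and Tagln UMIs. Outside it, 11 cells had 1 Myh11 UMI, and 36 cells had too few Acta2 and Tagln UMIs, with a median of 61.5 Rgs5 UMIs. Some of the 11 met the pericyte rule and were counted as pericytes, such as a cell with 12 Acta2, 18 Tagln and 45 Rgs5 UMIs. A larger number met the smooth muscle limits but carried a UMI of an excluded marker, 121 control and 24 KO cells, most often of Pdgfra (101 and 20 cells). Their median Rgs5 count was 0 in both libraries. In the control library they held 5628 CPM of Acta2 and 1975 of Myh11, close to the VSMC, but 279 CPM of Notch3 and 37.5 of Kcnk3 against 1845 and 374 in VSMC, and 3832 CPM of the fibroblast proteoglycan Dcn against 305. Whether they are doublets or a separate cell type was not tested.

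Rgs5, a regulator of G protein signalling used to define the pericytes (chromosome 1, 169655501 to 169695813, plus strand), was nearly as high in VSMC. It stood at 6776 CPM in control VSMC against 8688 in control pericytes, and at 5394 against 9312 in the KO library. Myh11 and Rgs5 per cell are plotted for both groups.

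**Figure D1:**
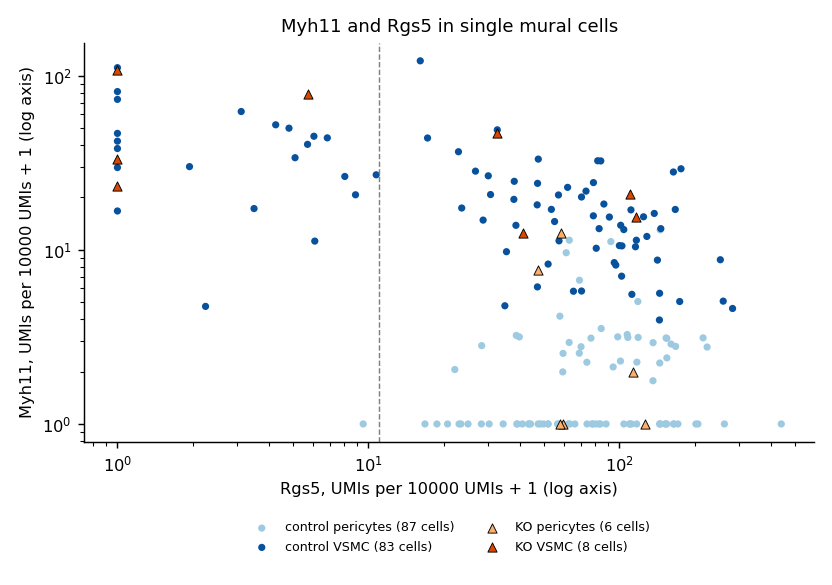
Myh11 against Rgs5 in each cell, as UMIs per 10000 UMIs plus 1 on log axes, for VSMC and pericytes of the control (circles) and KO (triangles) libraries; a value of 1 means no UMI and the dashed line marks 10 Rgs5 UMIs per 10000. VSMC spread from no Rgs5 (8 of 83 control cells) to levels as high as in pericytes.

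In the control library, 4354 genes had at least 50 UMIs over VSMC and pericytes. Of these, 357 (8.2%) were more than 2-fold higher in VSMC and 389 (8.93%) more than 2-fold lower, with a median log2 ratio of -0.11. In the KO library 329 genes reached 50 UMIs, 87 (26.4%) higher and 27 (8.21%) lower. That split depended on the scaling and became 139 higher and 9 lower with TMM factors. Leaving out the rule genes, 325 genes were measured in both libraries. Of these, 69 were past 2-fold higher in the control, and 52 of the 69 (75.4%) were also past 2-fold in the KO library, or 61.9% of its 84. In the lower direction 10 were past 2-fold in both, 62.5% of the 16 in the control and 37.0% of the 27 in the KO library. Many KO genes reach 50 UMIs through the VSMC alone, as Cd9 did with 54 UMIs in VSMC and none in pericytes.

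The counts for gene lists in the control library, here and below, stand beside 8.2% of all measured genes higher and 8.93% lower. The contractile apparatus made up the clearest group. Of its 27 measured members 22 were past 2-fold higher in control VSMC and none lower, with a median log2 ratio of 2.38. Without the 3 genes that chose the cells it was 19 of 24, with a median of 1.92. Smtn, smoothelin, did not follow, at 108 CPM in VSMC and 164 in pericytes (log2 ratio -0.59, interval -1.06 to -0.12). The promoters of 25 members were in the RefSeq table used here, and 5 of them (20%) held a CArG box within the 250 bases before the start, against 1.62% of all 27025 genes in the table. Only exact matches to the consensus were counted, on both strands, so that a box 1 letter off it is not found, and a match is a description, not a binding site. The promoters of Fhl1, Myl6, Myl9 and Vcl with an exact box, and that of Acta2, which has no exact match in this window, are shown to go with the contractile values given next. The boxes known for Acta2 lie in this window but are 1 letter off the consensus, so this search could not find them. Fhl1 and Myl6 each have another promoter in the table, which held no exact match and is not shown. Each is the 250 bases before the start in GRCm38.p6, written 5′ to 3′ on the gene's strand, with the box in capitals.
Acta2, chr19:34255374-34255623, minus strand: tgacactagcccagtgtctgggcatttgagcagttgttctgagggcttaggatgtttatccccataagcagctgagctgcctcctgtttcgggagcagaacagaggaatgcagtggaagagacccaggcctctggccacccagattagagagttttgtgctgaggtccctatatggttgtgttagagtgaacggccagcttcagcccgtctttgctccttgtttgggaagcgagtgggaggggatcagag
Myl9, chr2:156775214-156775463, plus strand: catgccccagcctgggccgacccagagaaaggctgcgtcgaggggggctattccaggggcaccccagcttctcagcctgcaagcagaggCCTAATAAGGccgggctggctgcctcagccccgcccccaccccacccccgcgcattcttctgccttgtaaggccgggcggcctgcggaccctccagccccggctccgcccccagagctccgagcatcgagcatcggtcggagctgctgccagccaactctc
Fhl1, chrX:56779433-56779682, plus strand: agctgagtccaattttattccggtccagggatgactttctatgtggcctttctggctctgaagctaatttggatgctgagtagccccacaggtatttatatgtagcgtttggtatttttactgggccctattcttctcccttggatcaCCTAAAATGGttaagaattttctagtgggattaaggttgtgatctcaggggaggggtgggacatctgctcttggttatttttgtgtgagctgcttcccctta
Myl6, chr10:128493010-128493259, minus strand: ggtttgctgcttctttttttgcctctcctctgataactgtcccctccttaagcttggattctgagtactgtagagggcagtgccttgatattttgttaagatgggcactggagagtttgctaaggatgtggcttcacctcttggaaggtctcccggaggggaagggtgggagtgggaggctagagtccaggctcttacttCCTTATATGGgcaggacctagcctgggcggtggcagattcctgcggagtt
Vcl, chr14:20929148-20929397, plus strand: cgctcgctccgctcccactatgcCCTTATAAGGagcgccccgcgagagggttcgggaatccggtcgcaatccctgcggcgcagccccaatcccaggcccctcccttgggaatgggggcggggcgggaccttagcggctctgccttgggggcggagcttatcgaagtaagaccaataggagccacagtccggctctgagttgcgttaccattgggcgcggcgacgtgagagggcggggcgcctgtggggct

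The boxes began 161 (Myl9), 102 (Fhl1), 50 (Myl6) and 227 (Vcl) bases before the start. Myl9 stood at 2947 CPM in control VSMC and 761 in pericytes (log2 ratio 1.95, 1.79 to 2.12). Fhl1, a LIM protein of muscle, stood at 428 and 76.3 CPM (2.49, 1.98 to 3.03) and Myl6, the essential light chain of myosin, at 3420 and 990 CPM (1.79, 1.64 to 1.94). Vcl, vinculin, which anchors actin at adhesions, differed less, at 522 and 384 CPM (0.44, 0.18 to 0.71).

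Among the remaining contractile genes several were close to absent from pericytes. Synm, an intermediate filament protein, stood at 128 CPM in VSMC and 6.54 in pericytes (log2 ratio 4.29, 2.70 to 6.59). Mustn1, a small muscle protein, stood at 1111 and 67.6 CPM (4.04, 3.52 to 4.60) and Lmod1 at 460 and 37.1 CPM (3.63, 2.93 to 4.43). No UMI of Actg2, the enteric smooth muscle actin, or of Cnn1, calponin, was found in control pericytes, against 97.7 and 76.6 CPM in VSMC, which makes them at least 14.9-fold and 11.7-fold higher with a floor of 3 UMIs over the group. In the KO library Mustn1 stood at 1688 CPM in VSMC and 164 in pericytes.

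**Figure D2:**
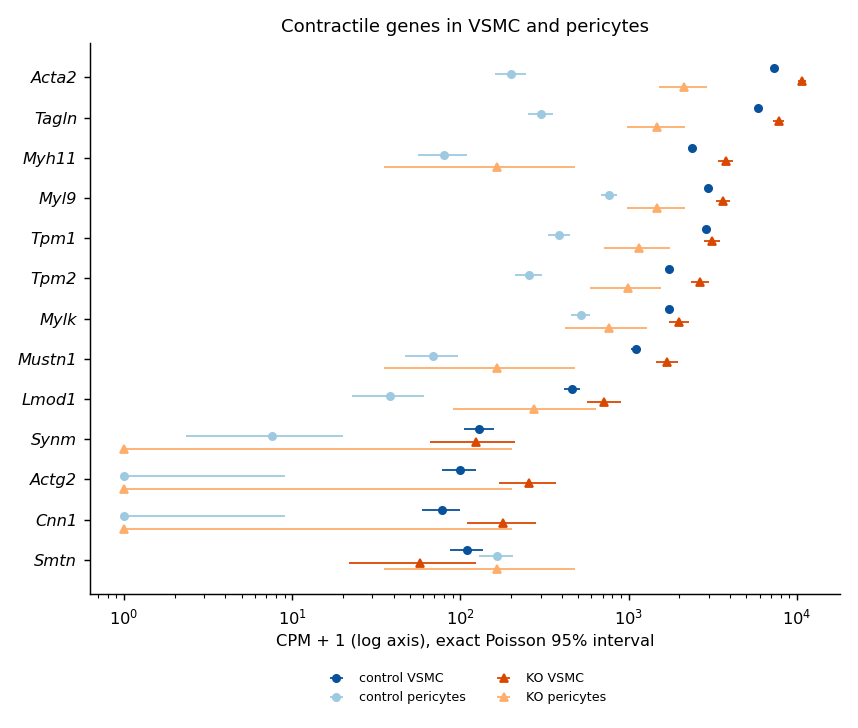
CPM plus 1 (log axis) of 13 contractile genes in VSMC (dark) and pericytes (light) of the control (circles) and KO (triangles) libraries, with exact Poisson 95% intervals. VSMC lie above the pericytes of their own library for every gene but Smtn; Acta2, Tagln and Myh11 were used to choose the cells.

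Calcium handling genes and ion channels were divided between the groups. Of 18 measured members 3 were past 2-fold higher and 4 lower, against 8.2% and 8.93% of all genes, and potassium channels stood at both ends. Kcnk3, a leak channel that sets the resting potential (chromosome 5, 30588170 to 30625271, plus strand), had 374 CPM in VSMC and 8.72 in pericytes (log2 ratio 5.42, 4.05 to 7.31), the highest ratio among the genes named by rule. In the KO library Kcnk3 had 490 and 219 CPM (1.16, -0.28 to 3.09), the latter from 4 UMIs of 1 cell, and the interval included no difference. Kcnj8 and Abcc9, the pore and the regulatory subunit of the ATP-sensitive channel and neighbours on chromosome 6, went the other way in the control library. Kcnj8 had 232 CPM in VSMC and 1679 in pericytes (-2.85, -3.10 to -2.61) and Abcc9 433 and 2338 CPM (-2.43, -2.62 to -2.25). The L-type calcium channel Cacna1c was alike in level, at 119 and 135 CPM (-0.19, -0.67 to 0.30).

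Vasoactive receptors were also split, with 3 of 10 measured members higher and 4 lower, against 8.2% and 8.93% of all genes. Npy1r, a receptor of the sympathetic transmitter neuropeptide Y, had 283 CPM in VSMC and 19.6 in pericytes (log2 ratio 3.85, 2.90 to 5.00). Ramp1, part of the receptor for the dilator CGRP, had 74.0 and 6.54 CPM (3.50, 1.88 to 5.82), but turned to -0.63 without cells with 10 or more UMIs of fibroblast genes. That kept 27 of the 83 VSMC, most of them low in Rgs5, and 22 of the 87 pericytes. The filter thus also changed which VSMC and pericytes were compared, here and where it is used below. The angiotensin receptor Agtr1a was lower in VSMC, at 129 against 868 CPM (-2.75, -3.08 to -2.42), and the endothelin receptor Ednra was alike, at 264 and 225 CPM (0.23, -0.12 to 0.59). Of 16 cyclic nucleotide and RGS genes 3 were higher and 2 lower. Adcy5, an adenylyl cyclase, had 123 CPM in VSMC and 4.36 in pericytes (4.82, 2.92 to 7.88), and another cyclase, Adcy3, had 26.4 and 233 CPM (-3.14, -3.91 to -2.45).

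In the Notch pathway, which guides mural cell maturation, 2 of 10 measured members were higher and 1 lower. The feedback inhibitor Nrarp had 211 CPM in VSMC and 8.72 in pericytes (log2 ratio 4.60, 3.21 to 6.49), and the target Hey2 77.9 and 26.2 CPM (1.57, 0.66 to 2.61). The receptor Notch3 differed little, at 1845 and 1452 CPM (0.35, 0.21 to 0.48), and Notch1 was lower in VSMC, at 85.8 against 290 CPM (-1.76, -2.21 to -1.32). Of 19 transcription factors 4 were higher and 2 lower, the latter near the 8.93% of all genes. Nr2f2, a nuclear receptor known for venous identity, had 1136 and 375 CPM (1.60, 1.36 to 1.84). Myocd, myocardin, had 43.6 CPM in control VSMC and no UMI in control pericytes, at least 6.66-fold higher.

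In the elastic fibre and vessel wall list 5 of 21 measured members were higher and 3 lower, with a median log2 ratio of 0.04, and 1 was higher once cells with 10 or more fibroblast UMIs were left out. Eln, elastin, had 1397 CPM in VSMC and 85.1 in pericytes (log2 ratio 4.04, 3.58 to 4.54), and no UMI in the 6 KO pericytes against 1245 CPM in KO VSMC. Mfap5, a microfibril protein, had 250 and 13.1 CPM (4.25, 3.10 to 5.72), but it turned to -1.22 once those cells were left out. Of 23 basement membrane and collagen genes 3 were higher and 11 lower in the control library, and of 8 measured in the KO library 2 were higher and 2 lower. Col4a1, a chain of type IV collagen, had 1354 CPM in VSMC and 3393 in pericytes (-1.33, -1.44 to -1.21). The laminin chains diverged, with Lama5 at 121 and 4.36 CPM (4.80, 2.91 to 7.87) and Lama2 at 43.6 and 222 CPM (-2.35, -2.96 to -1.77). The caveolar protein Cav1, 613 and 95.9 CPM (2.67, 2.23 to 3.16), was 1 of 3 of 16 integrin, caveola and dystrophin complex genes that were higher, with 2 lower.

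Of 28 measured pericyte genes 14 were past 2-fold lower in VSMC and 4 higher, with a median log2 ratio of -0.82. Pdgfrb, the receptor that recruits mural cells, had 821 CPM in VSMC and 2155 in pericytes (-1.39, -1.54 to -1.25), and the metalloreductase Steap4 481 and 1731 CPM (-1.85, -2.03 to -1.67). Among the exceptions, Colec11, a soluble lectin, had 415 CPM in VSMC and 17.4 in pericytes (4.57, 3.57 to 5.80), and turned to -2.37 without the cells with 10 or more fibroblast UMIs. A pair of lipid-handling genes was lower in VSMC. Plin2, a coat protein of lipid droplets, had 79.2 and 805 CPM (-3.34, -3.76 to -2.95), and Fabp4, a fatty acid binding protein also high in capillary endothelium, 5354 and 19709 CPM (-1.88, -1.93 to -1.83). Immune cells of the control library had 215 CPM of Fabp4. Summed endothelial markers were 6488 CPM in control VSMC and 22103 in control pericytes. Most of each sum was Fabp4 itself, so the sums are no separate measure of endothelial RNA, whose part in these values was not tested.

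**Figure D3:**
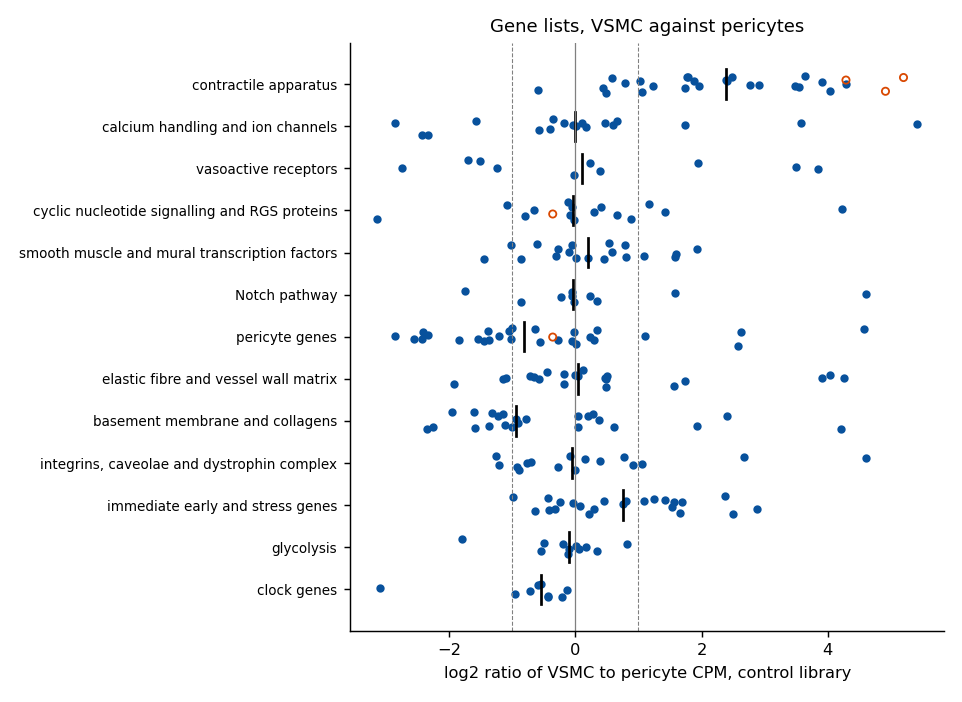
log2 ratio of VSMC to pericyte CPM in the control library for each list member with at least 50 UMIs (points), with the list's median (black bar), 2-fold limits (dashed) and genes used to choose the cells as open circles. The contractile list has a median of 2.38, or 1.92 without the genes that chose the cells, and the lists of pericyte genes and of basement membrane and collagen genes lie mostly below 0.

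Other lists were smaller or more even. Of 9 measured genes of modulated smooth muscle, the state that vessel wall cells take up after injury, 6 were past 2-fold higher in VSMC and none lower. Of 23 immediate early and stress genes 10 were past 2-fold higher in VSMC and none lower, among them Cyr61, a matricellular YAP target, at 820 and 111 CPM (log2 ratio 2.88, 2.47 to 3.32). Such genes also respond to tissue digestion, and its part was not tested. Of 11 glycolytic genes none was higher and 1, Ldhb, was lower, at 23.8 against 82.9 CPM (-1.80, -2.70 to -0.96). Of 9 clock genes none was higher and 1 was lower. The lower counts of the glycolytic and clock lists were near the 8.93% of all genes.

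Of the 329 genes measured in both libraries 55 (16.7%) were past 2-fold higher in both and 10 (3.04%) lower in both. Genes were named by a wider rule that asked for 50 UMIs in the control library alone and for a ratio past 2-fold in the same direction in the KO library at any depth, which 73 genes met as higher and 125 as lower. For the genes named next the KO direction rests on few UMIs, since the 6 KO pericytes held none of those higher in VSMC and 5 to 7 of those lower. Higher in VSMC after Kcnk3 were Sorbs2, an adaptor at actin junctions, with 271 and 10.9 CPM in the control library (log2 ratio 4.63, 3.39 to 6.27), and Id4, an inhibitor of helix-loop-helix factors, with 523 and 28.3 CPM (4.21, 3.41 to 5.13). Sdc1, a heparan sulfate proteoglycan, had 580 and 34.9 CPM (4.05, 3.34 to 4.87), which became -1.05 without the cells with 10 or more fibroblast UMIs, and the tetraspanin Cd9 333 and 21.8 CPM (3.93, 3.03 to 5.01). Tnc, tenascin C, had 97.7 CPM in VSMC and no UMI in control pericytes, at least 14.9-fold higher. Lower in VSMC were Ffar2, a receptor of short-chain fatty acids, with 17.2 and 371 CPM (-4.43, -5.37 to -3.62), the prostaglandin receptor Ptger2 with 34.3 and 236 CPM (-2.78, -3.46 to -2.15) and Enpep, the peptidase that cleaves angiotensin II, with 71.3 and 486 CPM (-2.77, -3.23 to -2.34). These 3 genes had no UMI in KO VSMC, and the 5 Ffar2 UMIs of the KO pericytes came from 1 cell.

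VSMC ranged widely in Rgs5. Split at 10 Rgs5 UMIs per 10000, the control cells formed 22 low and 61 high cells, and 8 cells lay between 5 and 20. Because the classes were cut from Rgs5 in the same cells, their differences are a description. Of 2728 genes with at least 50 UMIs over both classes, 150 (5.5%) were past 2-fold higher in the Rgs5-low cells and 396 (14.5%) lower. Rgs5-low cells held more contractile transcripts, 13 of 27 measured contractile genes higher and 3 lower. Myh11 had 4647 CPM in the low and 1660 in the high class, with medians over cells of 38.2 and 13.8 UMIs per 10000. Smtn, low against pericytes in all VSMC, had 312 CPM in the low class and 45.0 in the high class (log2 ratio 2.79). Pcp4l1, a calmodulin regulator, was found in 19 of 22 low and 6 of 61 high cells, and Pln, phospholamban, which restrains the calcium pump of the sarcoplasmic reticulum, in 9 and 1. Rgs4 went opposite to its relative Rgs5, at 1527 CPM in the low and 457 in the high class.

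The Rgs5-high cells held more pericyte and fibroblast transcripts than the Rgs5-low cells. Of 25 measured pericyte genes 13, Rgs5 included, were lower in the low class. Vtn, vitronectin, was found in 55 of 61 high and 1 of 22 low cells, and Abcc9 in 53 and 1. Colec11 was found in 44 high cells and in none of the 22 low ones. Collagens followed, with 13 of 20 basement membrane and collagen genes lower in the low class and none higher, and Col3a1 at 55.7 CPM in the low and 2639 in the high class. Eln stood at 490 and 1679 CPM and Mfap5 at 27.9 and 318 CPM. Summed fibroblast markers were 1727 CPM in the low and 7224 in the high class, against 5763 CPM in control pericytes and 66844 in control fibroblasts. The level of the high class was thus near that of pericytes. Haemoglobin and other erythroid genes stood at 56478 CPM in the low and 1227 in the high class, 4 cells holding 94.2% of the haemoglobin UMIs of all control VSMC. Without cells with 10 or more haemoglobin UMIs, 18 low and 46 high cells were left, with 118 genes higher and 283 lower and Myh11 at 4223 and 1640 CPM. The part of fibroblast RNA was not tested. The 8 KO cells fell 4 and 4, with Vtn and Abcc9 found in all 4 high cells and no low cell, although 3 of the 4 low cells had under 2000 UMIs.

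**Figure D4:**
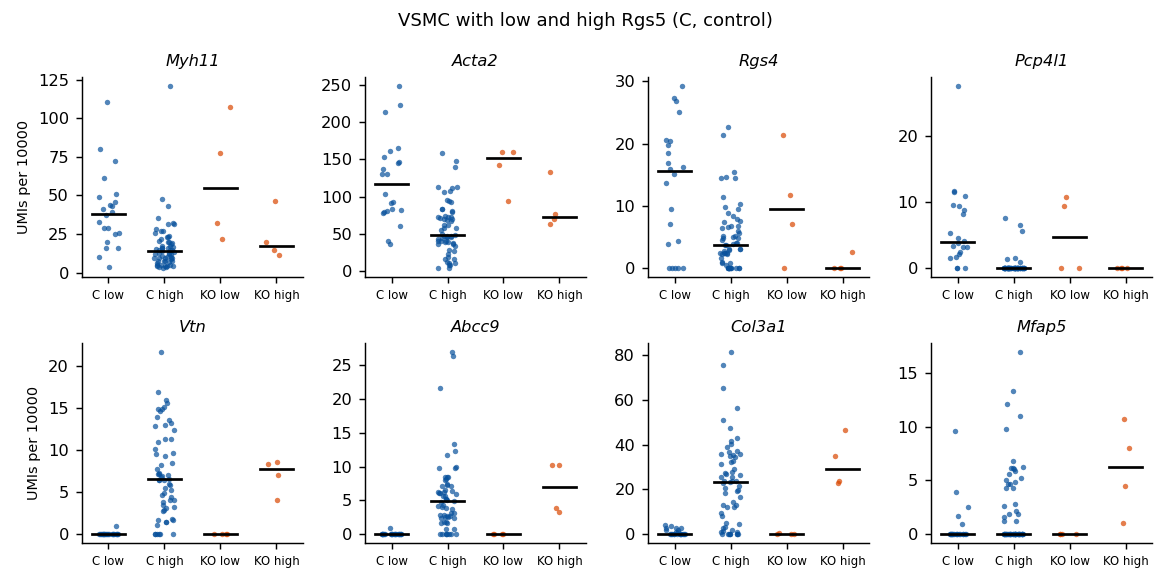
UMIs per 10000 UMIs of 8 genes in each VSMC, by library (C, control; KO) and by Rgs5 class, with black bars for medians over cells. Myh11, Acta2, Rgs4 and Pcp4l1 are higher in the Rgs5-low control cells, and Vtn, Abcc9 and Col3a1 in the Rgs5-high cells; Mfap5 was found in 27 of 61 high and 5 of 22 low control cells, so both its medians are 0.

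VSMC of the 2 libraries were then set side by side. Pgam1, the targeted gene (chromosome 19, 41911923 to 41918660, plus strand), had 84 UMIs in control VSMC, or 111 CPM (88.5 to 137), and 18 in KO VSMC, or 170 CPM (101 to 268). KO over control gave a log2 ratio of 0.61 (-0.21 to 1.36), so no difference was detectable at this depth. It was 2.71 without cells with 10 or more fibroblast UMIs, which left 3 KO VSMC with 2 Pgam1 UMIs, both in 1 cell. Without those with 10 or more haemoglobin UMIs, which left 4 KO VSMC, it was 1.78. Of these 4 cells 1 held 5 Pgam1 UMIs, another 2 and the rest none. Control pericytes held 126 CPM and KO pericytes 164, the latter from 3 UMIs. None of 9 measured glycolytic genes was past 2-fold in VSMC, and Aldoa, aldolase, had 310 CPM in control and 499.8 in KO VSMC (0.69, 0.23 to 1.12).

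Of 3103 genes with at least 50 UMIs over the VSMC of both libraries, 106 (3.42%) were past 2-fold higher in the KO library and 263 (8.48%) lower. For 147 of the 263 the interval included no difference, and for 16 the whole interval lay past 2-fold, as it did for 12 of the 106. Of 28 contractile genes 2 were higher and none lower. These were Cnn1, at 76.6 CPM in control and 179 in KO VSMC, and Actg2, at 97.7 and 255 CPM, with 96.3% of the KO Actg2 UMIs in 1 cell and a log2 ratio of -1.08 without the cell highest in it. Of 20 elastic fibre and vessel wall genes 4 were higher and 2 lower, with a median log2 ratio of 0.04, and of 21 basement membrane and collagen genes none was past 2-fold. Of the 10 genes named for the highest ratios of KO to control 3 were matrix genes. Thbs1, thrombospondin 1, had 89.8 and 434 CPM (2.27, 1.70 to 2.83) and was also higher in KO immune cells (4.58). Tnc had 97.7 and 339 CPM (1.80, 1.18 to 2.39) and the collagen crosslinking enzyme Lox 58.1 and 179 CPM (1.62, 0.77 to 2.43). Of 24 immediate early and stress genes 7 were higher and none lower, among them Fos, at 906 and 2216 CPM (1.29, 1.07 to 1.51), which was also higher in KO than control fibroblasts (log2 ratio 1.18) and endothelial cells (1.30), but not in pericytes (-1.71, from 3 KO UMIs).

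Clock output genes and haemoglobin stood at the low end. Of 8 measured clock genes 5 were past 2-fold lower in the KO library and none higher. Nr1d1, the repressor REV-ERB alpha, had 292 CPM in control and 28.3 in KO VSMC, the latter from 3 UMIs (log2 ratio -3.37, -5.66 to -1.80). Dbp, a clock output factor, had 151 and 9.43 CPM, the latter from 1 UMI (-4.00, -9.31 to -1.49). Both genes were also lower in other KO cells, Nr1d1 by -3.10 in fibroblasts and -1.64 in immune cells, and Dbp by -2.42 and -1.07, while Nr1d1 in the 6 KO pericytes gave -0.52 from 5 UMIs. Hour of tissue collection was not given in the sources used here. The 4 haemoglobin genes had ratios from -5.27 to -4.37. Hbb-bs, a beta globin, had 6636 and 321 CPM in VSMC and also differed by -1.42 in immune cells. All 4 turned to 0.57 or above without cells with 10 or more haemoglobin UMIs, which left 64 control and 4 KO VSMC. This filter removes cells by the same UMIs, so the turn is no separate evidence on the libraries. The 4 KO VSMC it removed were the deepest, with 17512 to 28850 UMIs. Fabp4 was lower in KO VSMC, at 990 against 5354 CPM (-2.43, -2.73 to -2.16), and in KO immune cells (-1.65), but not in KO pericytes (0.56) or endothelial cells (0.44).

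Against 8.48% of all genes, 3 of 9 Notch pathway and 4 of 25 pericyte genes were past 2-fold lower in KO VSMC. None of either list was higher. Nrarp stood at 211 CPM in control and 66.0 in KO VSMC (log2 ratio -1.68, -3.02 to -0.60) and Notch3 at 1845 and 1066 CPM (-0.79, -1.08 to -0.51). Steap4 stood at 481 and 151 CPM (-1.67, -2.49 to -0.95). The Rgs5-high class gave 76.3% of control and 76.1% of KO VSMC UMIs. Summed Notch pathway genes stood at 3535 CPM in control and 2103 in KO VSMC, but also at 3336 and 2191 CPM in pericytes and 2400 and 1874 CPM in endothelial cells. Summed pericyte genes stood at 18321 and 14306 CPM in VSMC and 29114 and 23883 CPM in pericytes. Within the Rgs5-high class Steap4 differed by -1.66, Nrarp by -1.95 and Notch3 by -0.80.

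**Figure D5:**
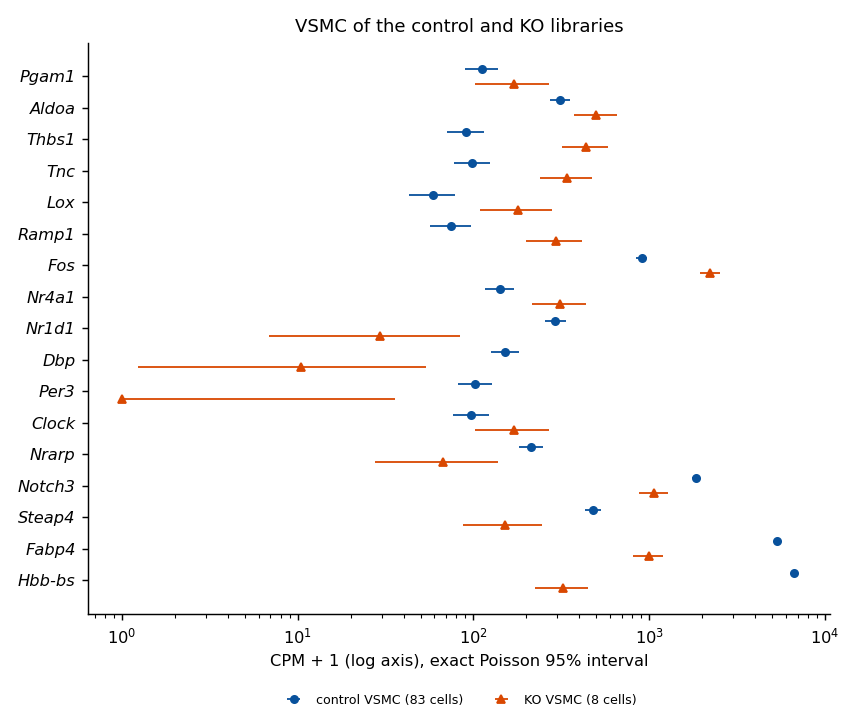
CPM plus 1 (log axis) in VSMC of the control (83 cells, circles) and KO (8 cells, triangles) libraries for 17 genes, with exact Poisson 95% intervals. Pgam1 intervals overlap, Thbs1, Tnc, Lox and Fos lie higher in the KO library, and Nr1d1, Dbp, Per3, Fabp4 and Hbb-bs lower.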

How the data were processed

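Per the labels and the submitters' processing notes, the authors aligned reads of 10x 3′ libraries to mm10 and counted UMIs per gene and barcode with Cell Ranger 3.0.1. The values as deposited are raw UMI counts. Strand handling was not given in the sources used here. Cells were filtered and grouped by raw UMIs as the report states, counts were summed per group and library, and CPM with exact Poisson intervals, shares with exact binomial (Clopper-Pearson) intervals and ratios with exact conditional binomial intervals were computed (Python 3.11.15, scipy 1.17.1). A gene was measured in a comparison at 50 or more UMIs over both groups and called past 2-fold; for calls and ranks, counts under 3 were set to 3, and a ratio whose direction this floor turned was set to 0. Scores from Scrublet (scanpy 1.11.5) marked 0.8% of cells per 1000 barcodes but removed none. TMM factors came from edgeR 4.0.16. The ratio calls were tested on simulated data. More of the simulated unchanged genes passed 2-fold between libraries than between control VSMC and pericytes, from counting error, so the calls between libraries are less sure. No p-value was computed, since each genotype had 1 library.

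Named genes were the rule genes, Rgs5 and Pgam1, members of 23 gene lists, the 15 highest and 10 lowest ratios of VSMC to pericytes past 2-fold in both libraries (with the 50 UMI minimum applied in the control library only), and the 10 highest and 10 lowest ratios of KO to control in which no cell held the majority of the UMIs of the higher library, a part of each being printed; 1 of the lists is not reported here. Smtn, Vcl, Pcp4l1, Pln and genes within the Rgs5 classes were chosen after their values were seen. The members and lists were chosen with earlier results of these data known. Results were recomputed under 17 other settings and under 5 more chosen after seeing the data: leaving out cells with haemoglobin UMIs or under 5000 UMIs, each Rgs5 class alone, and another Rgs5 limit.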

Additional observations from a re-analysis of the deposited data

Results flagged for a closer look

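Aspn, asporin, a small proteoglycan of the pericyte list, went opposite ways in the libraries. In the control library it was lower in VSMC (741 CPM) than in pericytes (1500 CPM), and in the KO library it was higher in VSMC (896 CPM) than in pericytes (383 CPM), with a log2 ratio of 1.22 (0.13 to 2.58). The KO pericytes are 6 cells, and the difference between the libraries was not tested.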

How the results depend on the processing

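No paired analysis was possible because each genotype had 1 library and no test was made. The contractile genes past 2-fold higher, 19 without the rule genes, numbered 13 to 21 under the alternatives computed for them. With the filter at 200 genes and 20% mitochondrial UMIs, the KO library gave 180 genes higher and 41 lower in VSMC than pericytes. With the filter at 1000 genes and 5%, 12 control VSMC were left (0.653% of cells) and 0 in the KO library (0%), which gave no KO values; 114 genes were higher and 118 lower, 1 elastic gene was higher, and Ctgf (-1.96) and Nr4a1 (-0.45) reversed. With 1 Myh11 UMI allowed, the KO library gave 44 higher and 42 lower, and the KO to control ratios of Hbb-bt (1.82), Hba-a1 (1.09), Hba-a2 (1.08) and Hbb-bs (1.11) reversed. Without cells with 10 or more fibroblast UMIs, VSMC were 0.696% and 0.313% of cells, the counts were 152 and 65 (control) and 5 and 7 (KO library), 12 genes were lower in KO than control VSMC, Pgam1 stood at 2.71, and 1 elastic and 7 pericyte genes were past 2-fold. This left 22 control pericytes, most control VSMC kept were low in Rgs5, and the Pgam1 value rested on 2 UMIs of 1 KO cell. Under this setting Ramp1 (-0.63), Adra2a (-2.05), Prrx1 (-1.49), Colec11 (-2.37), Mfap5 (-1.22) and Sdc1 (-1.05) reversed against pericytes and Efhd2 (1.93) and Cul3 (2.93) between libraries. Means of per-cell CPM gave 42 lower in the KO library and 280 higher and 626 lower in KO than control VSMC. Thinning to 2000 UMIs gave 113 and 115 (control) and 11 and 2 (KO library), 25 and 17 between libraries, 1 elastic and 8 pericyte genes, and Pgam1 at 1.66. With no Myh11 UMI in pericytes the KO library gave 42 higher, with TMM factors 139 and 9, and with median-of-ratios factors 141 and 9. A minimum of 20 UMIs gave 686 and 836 (control), 133 and 109 (KO library) and 364 higher between libraries. A minimum of 100 gave 206 and 194, 36 and 8, and 32 and 62, with 2 elastic genes. Without the cell highest in each gene, 54 were higher in the KO library, 34 higher and 400 lower between libraries, and Actg2 reversed (-1.08). Among the alternatives added after seeing the data, leaving out cells with 10 or more haemoglobin UMIs gave 16 and 5 in the KO library, 160 and 59 between libraries, Pgam1 at 1.78 and 3 elastic genes, and reversed H2-M9 (-0.19), Npy1r (-0.47), Hbb-bt (2.00), Hba-a1 (0.62), Hba-a2 (0.61) and Hbb-bs (0.57) between libraries. The haemoglobin setting removes cells by those same UMIs, so the haemoglobin genes are no separate evidence there. Without cells under 5000 UMIs, VSMC were 2.83% of control cells, and Rgs5-low VSMC alone gave 26 higher and 46 lower between libraries. The causes were not tested. The 8 KO VSMC limit every comparison between the libraries.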
